A study of Homo sapiens with 3 samples.

Results

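The genes described here are those for monocarboxylate transport and lactate sensing, and they are 9 of the 25270 gene symbols in the deposited values. They were chosen by symbol: the carriers SLC16A1, SLC16A3, SLC16A4, SLC16A5, SLC16A6, SLC16A7 and SLC16A9, their chaperone BSG and the lactate receptor HCAR1. RNA was sequenced from HepG2, a human hepatocellular carcinoma cell line labelled as liver, in 3 conditions. HepG2/wild was the untreated parental line, and HepG2/metR is described as derived from it by exposure to metformin, an inhibitor of respiratory complex I, for more than 5 months. HepG2/metR+oxamate was HepG2/metR after 24 h in 40 mM oxamate, which inhibits lactate dehydrogenase. All were grown in the same serum-containing medium. HepG2/metR is a single selected population, and whether it is a clone, and whether metformin was present at harvest, is not given in the sources used here. There was 1 library per condition, so no difference has a replicate check, no p-value is given and neighbours in an order of levels have no spread by which to separate them.

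Values are FPKM, fragments normalised to transcript length and library size, obtained by reversing the deposited log2(FPKM + 1). Differences are given as log2(FPKM + 1), where the added 1 shrinks differences between low values, and folds are ratios of FPKM. A gene was called when it differed by at least 2-fold on the log2(FPKM + 1) scale between HepG2/metR and HepG2/wild, or by at least 1.5-fold with oxamate, provided that its FPKM averaged 1 or more over the libraries. This filter kept 12207 genes. Judged by the smallest listed values, depth relative to HepG2/wild was 1.21 in HepG2/metR and 1.24 in HepG2/metR+oxamate. Genes with a single annotated transcript gave a separate estimate, by which 1 fragment per kilobase was worth 0.0441, 0.0380 and 0.0363 FPKM in HepG2/wild, HepG2/metR and HepG2/metR+oxamate. Fragment numbers given below rest on that estimate and on transcript lengths that may not be those the authors used, so they show only the order of size.

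Proton-linked monocarboxylate transporters of the SLC16 family carry lactate, pyruvate and ketone bodies across the plasma membrane together with a proton. Net flux follows the gradients, so the same carrier can release lactate from a glycolytic cell or take it up in an oxidative one. MCT1 and MCT4 need basigin to reach the cell surface, and liver cells use such carriers to take up lactate for glucose synthesis and to export ketone bodies.

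The label liver was checked against 11 hepatocyte genes. Their summed level was 32574 FPKM in HepG2/wild, 14.0 FPKM in HepG2/metR and 11.3 FPKM in HepG2/metR+oxamate. The most abundant was APOA2 at 11976 FPKM in HepG2/wild, and SERPINA1 at 11.2 and 7.10 FPKM in HepG2/metR without and with oxamate. In both HepG2/metR libraries 9 of the 11 were under 1 FPKM; APOA1, TTR and FGA were listed at 0 without oxamate, and TTR with it. HNF4A, a defining liver transcription factor, was at 68.7, 0.0156 and 0.0153 FPKM in HepG2/wild, HepG2/metR and HepG2/metR+oxamate. All 11 fell in HepG2/metR. With oxamate SERPINA1 was called lower at a log2 difference of -0.589, barely past the threshold, and with the libraries scaled to the same total FPKM it was not called and FGB was called higher. With pseudocounts of 0.1 and 0.01 SERPINA1 was still called lower, and 4 and 5 of the 11 were called higher, against 0 as deposited. The HepG2/metR libraries thus held little of the liver markers that HepG2/wild carried. Among 4 epithelial genes, CDH1 and EPCAM fell in HepG2/metR (from 5.92 to 0.0365 FPKM and from 102 to 0.0900 FPKM), while the keratins KRT8 and KRT18 were not called, at 1080 and 897 FPKM and at 605 and 787 FPKM. Among 6 mesenchymal genes, VIM rose from 1.23 to 1576 FPKM and THY1 from 0.0374 to 53.3 FPKM, and FN1 fell from 1503 to 45.7 FPKM and rose to 93.7 FPKM with oxamate. CDH2 was not called, and COL1A1 and COL1A2, under the filter, were lower in HepG2/metR (1.22 to 0.494 FPKM and 0.141 to 0.0129 FPKM), so 4 of the 6 were below 0. Of 3 biliary genes KRT7 rose and KRT19 and SOX9 fell. The 3 endothelial genes were under 1 FPKM in every library, as were the leukocyte genes PTPRC and CD3E, whereas CD68, a lysosomal protein also found outside leukocytes, was at 35.7, 43.0 and 31.0 FPKM. All 3 libraries are labelled HepG2, and whether the HepG2/metR cells are of that line was not tested. The effect of metformin selection therefore cannot be told apart from any other difference between the 2 cultures, line identity included, in any of the differences from HepG2/wild below. In these bulk libraries, fewer cells with a transcript and less of it per cell cannot be told apart either, and the part that the lost liver markers play in the differences below was not tested.

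**Figure D1:**
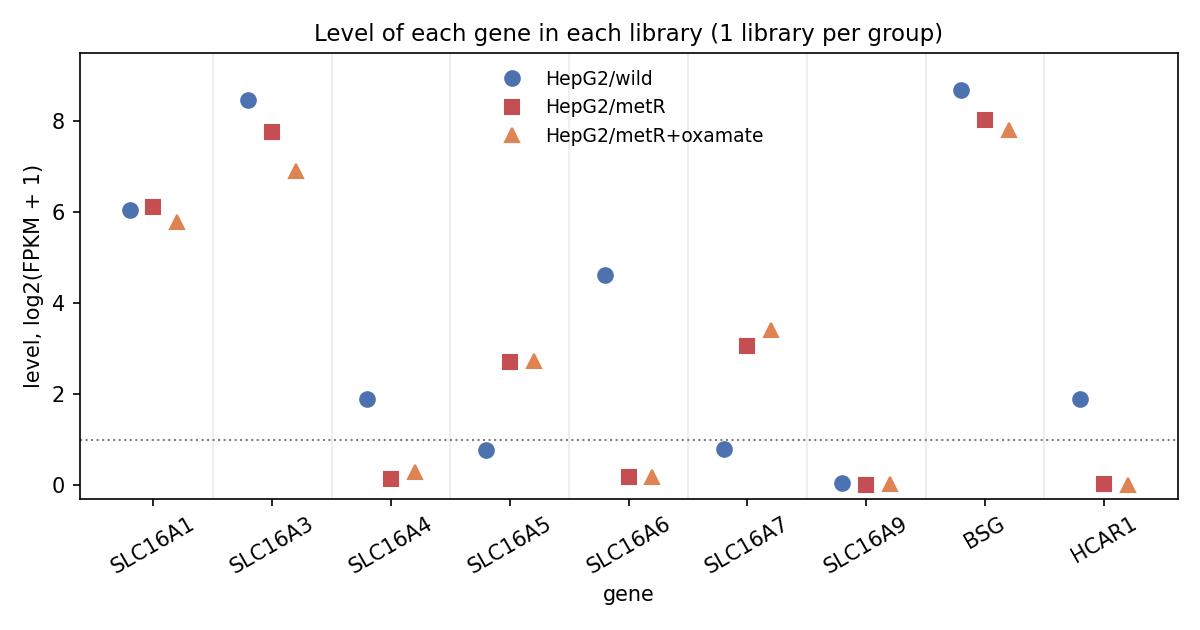
Level of each of the 9 genes as log2(FPKM + 1), with 1 point per library (circle HepG2/wild, square HepG2/metR, triangle HepG2/metR+oxamate); the dotted line marks 1 FPKM. BSG, SLC16A3 and SLC16A1 were high in all 3 libraries, whereas SLC16A4, SLC16A6 and HCAR1 were above 1 FPKM in HepG2/wild only and SLC16A5 and SLC16A7 in both HepG2/metR libraries only.

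The comparison of HepG2/metR with HepG2/wild asks which genes accompany the selected, lactate-producing state. Of the 9 genes, 7 passed the filter on low values. SLC16A5 and SLC16A7 rose at least 2-fold in HepG2/metR, which is 2 of 7 genes, against 16.6% of all genes kept. SLC16A4 and SLC16A6 fell at least 2-fold, again 2 of 7 genes, against 17.6% of all genes kept. These 4 genes were each under 1 FPKM in the lower of the compared libraries and passed the filter through the libraries where they were high, so the counts are a description only. SLC16A4 lay just inside the filter, with a mean of 1.01 FPKM, and HCAR1 just outside, with a mean of 0.914 FPKM. The abundant genes SLC16A1, SLC16A3 and BSG differed by less than 2-fold.

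The comparison with oxamate asks what changes when lactate production in HepG2/metR is inhibited. Only SLC16A3 of the 7 genes passed 1.5-fold: it fell, which is 1 of 7 against 3.82% of all genes kept. None of the 7 genes was called higher, against 4.3% of all genes kept. The changes called across all genes split almost evenly as deposited, with 53.0% of them higher, but when the libraries were scaled to the same total FPKM 86.0% were higher. SLC16A3 was still the gene called lower under that scaling, at a log2 difference of -0.68. The HepG2/metR library enters both comparisons, which are therefore not independent.

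**Figure D2:**
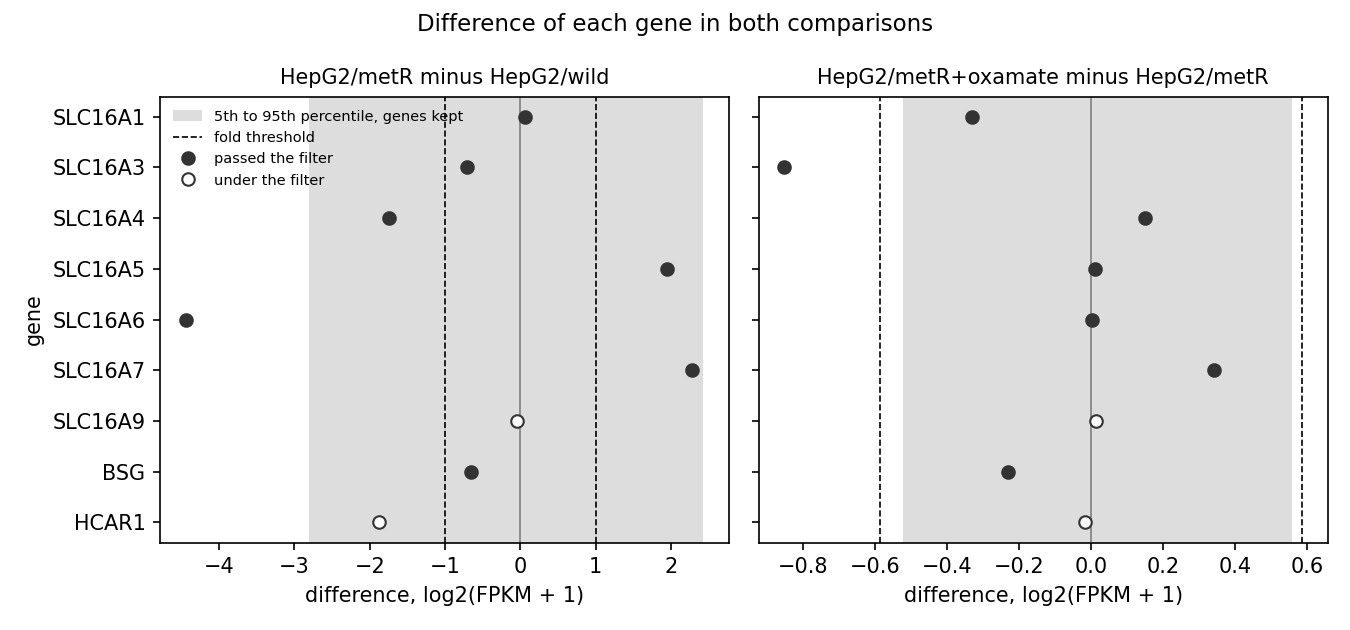
Difference in log2(FPKM + 1) of each gene between HepG2/metR and HepG2/wild (left) and between HepG2/metR+oxamate and HepG2/metR (right). Filled points passed the filter, open points did not, the shaded band spans the 5th to 95th percentile of all 12207 genes kept, and dashed lines mark the fold thresholds; SLC16A6 lies below the band on the left and SLC16A3 on the right.

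SLC16A3 encodes MCT4, a carrier typical of glycolytic cells that is associated with lactate release. Its level was 353 FPKM in HepG2/wild, 215 FPKM in HepG2/metR and 119 FPKM in HepG2/metR+oxamate. It was therefore highest in the parental line and lowest with oxamate, and in each library it was the most abundant of the SLC16 genes listed. The log2 difference was -0.71 between HepG2/metR and HepG2/wild, a 1.64-fold lower FPKM that did not reach the threshold of 2-fold. With oxamate the log2 difference was -0.85, a 1.81-fold lower FPKM. SLC16A3 stayed among the abundant transcripts all the same: its FPKM was above that of 98.1%, 97.0% and 95.4% of the genes listed at 1 FPKM or more in HepG2/wild, HepG2/metR and HepG2/metR+oxamate. These values rest on an estimated 38636, 27375 and 15836 fragments, so counting error is small beside the differences, but culture and library variation was not measured. CSNK1D, a kinase gene that overlaps SLC16A3 on the opposite strand, was at 41.2, 40.7 and 48.4 FPKM. The strand setting of the counting is not given in the sources used here, so reads of the 2 genes cannot be told apart where they overlap.

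SLC16A1 encodes MCT1, a widely expressed carrier that works in either direction. Its level was 65.6 FPKM in HepG2/wild, 68.4 FPKM in HepG2/metR and 54.2 FPKM in HepG2/metR+oxamate. The 3 libraries thus lay close together, with log2 differences of 0.06 between HepG2/metR and HepG2/wild and -0.33 with oxamate, neither of them past its threshold. The antisense gene SLC16A1-AS1 overlaps it and was at 3.64, 3.85 and 4.75 FPKM, a small level beside that of SLC16A1. RefSeq also lists the pseudogene copies SLC16A1P1 and SLC16A6P1, and how reads shared with such copies were assigned is not given in the sources used here.

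SLC16A7 encodes MCT2, a carrier with a high affinity for pyruvate and lactate. Its level was 0.721 FPKM in HepG2/wild, 7.34 FPKM in HepG2/metR and 9.57 FPKM in HepG2/metR+oxamate. It was thus under 1 FPKM in the parental line and well above it in both selected libraries, from an estimated 193, 2273 and 3108 fragments. SLC16A7 rose 10.2-fold in HepG2/metR, a log2 difference of 2.28. With oxamate the log2 difference was 0.34, which did not reach the threshold.

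Taken per length and within each library, the makeup of these lactate carriers shifted. The ratio of SLC16A3 to SLC16A1 FPKM was 5.37 in HepG2/wild, 3.15 in HepG2/metR and 2.19 in HepG2/metR+oxamate. Of the summed FPKM of SLC16A1, SLC16A3 and SLC16A7, SLC16A3 held 84.2%, 74.0% and 65.1%, SLC16A1 held 15.7%, 23.5% and 29.7%, and SLC16A7 held 0.172%, 2.52% and 5.24% in the same order. SLC16A3 remained the largest share throughout. The sum of SLC16A1 and SLC16A3 was 418 FPKM in HepG2/wild, 284 FPKM in HepG2/metR and 173 FPKM in HepG2/metR+oxamate, which is 1.47-fold lower in HepG2/metR than in HepG2/wild and a further 1.64-fold lower with oxamate. In both steps most of the difference was in SLC16A3.

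Promoter windows from RefSeq (build GRCh38.p14, 250 bases before to 50 after a gene start) matched 5 of the 9 genes, with 12 windows. Those not matched were SLC16A1, SLC16A5, SLC16A6 and HCAR1. These genes are shown because SLC16A3 and its chaperone BSG had the same order of levels across the libraries while SLC16A7 had the reverse. BSG was not called in either comparison, SLC16A3 was called with oxamate only and SLC16A7 in HepG2/metR only. None of these orders therefore has a call behind both steps. The windows below are not all those of each gene, and no other window of SLC16A3 or BSG holds ACGTG. They are, on the plus strand, chr17:82228792-82229091 for SLC16A3, chr19:572346-572645 for BSG and chr12:59595779-59596078 for SLC16A7. Capitals mark ACGTG or GCGTG, the core of the hypoxia response element, and CACGTG, the E-box, read on either strand.
SLC16A3: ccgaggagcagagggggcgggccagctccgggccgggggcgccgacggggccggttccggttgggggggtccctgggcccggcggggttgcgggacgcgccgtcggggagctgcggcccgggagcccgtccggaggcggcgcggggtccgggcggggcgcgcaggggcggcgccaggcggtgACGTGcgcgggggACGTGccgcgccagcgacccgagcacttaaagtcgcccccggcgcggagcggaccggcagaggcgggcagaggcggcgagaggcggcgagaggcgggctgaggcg
BSG: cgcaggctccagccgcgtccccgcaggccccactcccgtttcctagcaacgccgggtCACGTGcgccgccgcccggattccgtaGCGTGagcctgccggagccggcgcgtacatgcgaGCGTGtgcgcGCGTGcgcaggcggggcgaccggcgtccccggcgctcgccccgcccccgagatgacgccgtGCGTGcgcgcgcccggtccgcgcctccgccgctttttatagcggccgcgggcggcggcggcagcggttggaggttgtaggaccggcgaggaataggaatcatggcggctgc
SLC16A7: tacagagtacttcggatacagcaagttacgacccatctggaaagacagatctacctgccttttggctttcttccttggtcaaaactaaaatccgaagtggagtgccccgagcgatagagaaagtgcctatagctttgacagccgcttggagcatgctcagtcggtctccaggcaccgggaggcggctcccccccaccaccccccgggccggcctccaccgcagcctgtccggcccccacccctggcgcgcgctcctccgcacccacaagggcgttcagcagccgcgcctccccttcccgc
The SLC16A3 window holds ACGTG at 2 places, neither of them within CACGTG. The BSG window holds 1 CACGTG, which contains ACGTG on both strands, and 4 GCGTG, and the SLC16A7 window holds none of these. Of 35116 windows of this length in the table, 21.4% hold ACGTG, 36.5% GCGTG and 7.26% CACGTG, so such matches are common. The base composition of the windows shown differs as well. G and C make up 82.7% of the SLC16A3 window, 75.3% of the BSG window and 62.7% of the SLC16A7 window. Each is the window of its gene with the most G and C, so the genes are not ranked by it. Another SLC16A3 window has 65.3%, near the SLC16A7 window shown, and the other BSG window has 56.7%. The motif shares above are of all windows and were not matched for base composition. Of the 4 other SLC16A3 windows, 1 holds 3 GCGTG, 1 holds 1 GCGTG and 2 hold none. The 2 SLC16A9 windows overlap and share 1 GCGTG, and 1 of them also holds CACGTG. The SLC16A4 window and the other SLC16A7 window hold none. The E2F motifs TTTCCCGC, TTTGGCGC and TTTCGCGC, held by 1.63%, 0.652% and 0.515% of all windows, were also searched on both strands. Among the windows of the 9 genes the search found 1 such match, TTTCCCGC in the other BSG window (chr19:571033-571332). A match describes the letters only, and binding was not measured here.

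The other SLC16 carriers were lower in level and split in direction. SLC16A6 encodes MCT7, a carrier linked to ketone body export from liver cells. Its level was 23.5 FPKM in HepG2/wild, 0.126 FPKM in HepG2/metR and 0.127 FPKM in HepG2/metR+oxamate. It was thus well expressed in the parental line and nearly lost in both selected libraries, where its value rests on an estimated 12.6 and 13.4 fragments. SLC16A6 fell 186-fold in FPKM, a log2 difference of -4.44, and the difference with oxamate was 0.00. ARSG, a sulfatase gene that overlaps it on the opposite strand, was at 4.31, 0.283 and 0.401 FPKM, low in the same libraries, and reads of the pair cannot be told apart where they overlap.

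SLC16A4 encodes MCT5, a carrier whose substrates are less well known. Its level was 2.69 FPKM in HepG2/wild, 0.103 FPKM in HepG2/metR and 0.224 FPKM in HepG2/metR+oxamate. It fell in HepG2/metR, with a log2 difference of -1.74 and a 26.0-fold lower FPKM. The values in the selected libraries rest on an estimated 7.16 and 16.3 fragments, and the log2 difference of 0.15 with oxamate, a 2.17-fold higher FPKM, became a call only with a smaller pseudocount (1.05 with a pseudocount of 0.01). LAMTOR5-AS1, which overlaps SLC16A4 on the opposite strand, was at 0.132, 0.768 and 0.659 FPKM.

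SLC16A5 encodes MCT6, a carrier of drugs such as bumetanide. Its level was 0.706 FPKM in HepG2/wild, 5.57 FPKM in HepG2/metR and 5.61 FPKM in HepG2/metR+oxamate. SLC16A5 rose 7.89-fold in HepG2/metR, a log2 difference of 1.94, and lay at the same level with and without oxamate, with a log2 difference of 0.01. SLC16A9 encodes MCT9, a carrier of carnitine. It was at 0.0324 FPKM in HepG2/wild, listed at 0 in HepG2/metR and at 0.00871 FPKM in HepG2/metR+oxamate. With an estimated 3.07 fragments in HepG2/wild, its highest library, it was at or near 0 throughout.

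A list of 6 further SLC16 genes was set beside these carriers. SLC16A10, a carrier of aromatic amino acids, fell from 4.02 to 0.226 FPKM in HepG2/metR and was at 0.0738 FPKM with oxamate, a 3.07-fold lower FPKM that was called with pseudocounts of 0.1 (-0.91) and 0.01 (-1.50) only. SLC16A13 was at 8.35, 3.92 and 4.17 FPKM in HepG2/wild, HepG2/metR and HepG2/metR+oxamate, and its log2 difference of -0.92 in HepG2/metR, a 2.13-fold lower FPKM, did not reach the threshold but passed it with pseudocounts of 0.1 (-1.07) and 0.01 (-1.09). SLC16A12, a creatine carrier, and SLC16A14 did not pass the filter, at 0.0554, 0.396 and 1.04 FPKM and at 0.0292, 0.265 and 0.510 FPKM. Both were higher at each step, short of the thresholds as deposited and past them with either smaller pseudocount. SLC16A8 and SLC16A11 were listed at 0 in every library. In all, 2 of these 6 genes passed the filter, with 1 called lower in HepG2/metR and none called with oxamate.

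Summed over the 13 SLC16 genes listed, the level was 458 FPKM in HepG2/wild, 302 FPKM in HepG2/metR and 194 FPKM in HepG2/metR+oxamate. The number of these genes at 1 FPKM or more was 6, 5 and 6, so the list was about equally broad but held different genes. SLC16A6 made up 5.12%, 0.0417% and 0.0655% of the summed FPKM, and SLC16A7 made up 0.157%, 2.43% and 4.92%. SLC16A3 made up 76.9%, 71.4% and 61.2%, the largest share in each library.

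**Figure D3:**
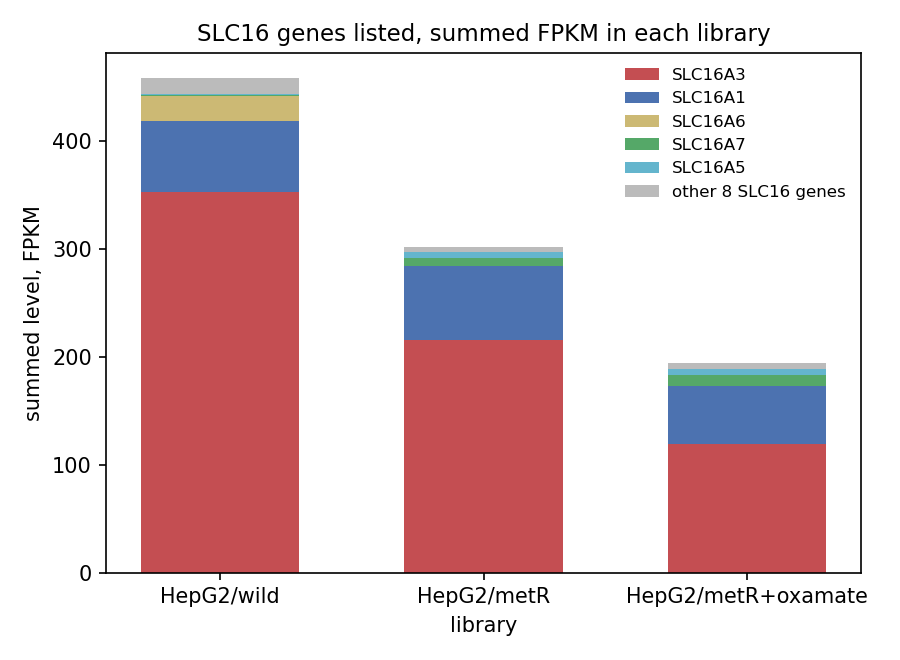
Summed FPKM of the 13 SLC16 genes listed, in each library, with bars starting at 0 and colours for single genes. The sum was 458, 302 and 194 FPKM, SLC16A3 was the largest part of each bar, SLC16A6 was visible in HepG2/wild only and SLC16A7 in both HepG2/metR libraries only.

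BSG encodes basigin, the membrane glycoprotein that brings MCT1 and MCT4 to the cell surface. Its level was 409 FPKM in HepG2/wild, 260 FPKM in HepG2/metR and 222 FPKM in HepG2/metR+oxamate, and it was the most abundant of the 9 genes in each library. The log2 difference was -0.65 in HepG2/metR, a 1.57-fold lower FPKM, and -0.23 with oxamate, a 1.17-fold lower FPKM, and neither passed its threshold. The ratio of BSG FPKM to the summed FPKM of SLC16A1 and SLC16A3 was 0.978, 0.917 and 1.28 in HepG2/wild, HepG2/metR and HepG2/metR+oxamate. The chaperone transcript was thus close to its client carriers in level in the libraries without oxamate and above them with oxamate. Of the other ancillary proteins, neuroplastin (NPTN) was at 73.8, 55.4 and 54.9 FPKM and embigin (EMB), a partner of MCT2, was under 0.1 FPKM in every library. NPTN, the only 1 of this pair to pass the filter, was not called in either comparison.

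Basigin also binds proteins other than the SLC16 carriers, and 9 of 9 listed partners passed the filter. In HepG2/metR 3 rose and 0 fell, against 16.6% and 17.6% of all genes kept, with a median log2 difference of 0.67. The hyaluronan receptor CD44 rose from 0.152 to 248 FPKM, and the integrin subunits ITGA3 and ITGA6 rose from 1.88 to 212 FPKM and from 45.0 to 129 FPKM. With oxamate 2 of the 9 fell, against 3.82% of all genes kept. These were the cyclophilin PPIA at a log2 difference of -0.60 and the glutamine carrier SLC1A5 at -0.74. All 9 were below 0, with a median of -0.46, or -0.48 relative to the median of all genes. ITGB1 was barely so, at -0.0006, and 8 of the 9 were below 0 with median-of-ratios scaling. The 4 epithelial and 3 biliary genes were all below 0 with oxamate as well, with medians of -0.20 and -0.21. Of all genes kept, 5563 were below 0 and 6457 above. All 9 partners also had a mean FPKM of at least 5. Among all genes at that level, 271 were called higher and 403 lower with oxamate, the reverse of 525 and 466 among all genes kept. Whether the partners differ from other genes of like level was not tested. Scaling to the same total FPKM, which shifts all genes upward in this comparison, left 6 of the 9 partners below 0 and 0 called. Their median relative to all genes was then still -0.45.

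HCAR1 encodes the G protein-coupled receptor for extracellular lactate, known for restraining lipolysis in fat cells. It was at 2.73 FPKM in HepG2/wild, at 0.0122 FPKM in HepG2/metR and listed at 0 in HepG2/metR+oxamate. These values rest on an estimated 295, 1.53 and 0 fragments, so the receptor was detected in the parental line and was at or near 0 in the selected cells. HCAR1 lay under the filter, and the log2 difference of -1.88 between HepG2/metR and HepG2/wild was past 2-fold only with the filter left out. No ribosomal protein gene of 76 was listed at 0 in any library. Among 6 other receptors for metabolites and protons, HCAR3, a receptor for hydroxylated fatty acids, was at 0.552 FPKM in HepG2/wild and listed at 0 in both other libraries. GPR4, a proton-sensing receptor, was listed at 0 in HepG2/wild and at 1.97 and 2.36 FPKM in HepG2/metR without and with oxamate, and was the only gene of the 6 to pass the filter, called higher in HepG2/metR.

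Across the 7 genes kept, the median log2 difference was -0.65 in HepG2/metR and 0.00 with oxamate, beside 0.02 in each comparison for all genes kept. Among 208 solute carrier genes kept of 364, 14.4% were called higher and 34.6% lower in HepG2/metR, with a median of -0.38. With oxamate 3.85% of them were higher and 3.37% lower, with a median of 0.03. The order of levels in HepG2/wild was BSG, SLC16A3, SLC16A1, SLC16A6, HCAR1, SLC16A4, SLC16A7, SLC16A5 and SLC16A9. In HepG2/metR it began with the same leading genes and went on with SLC16A7, SLC16A5, SLC16A6, SLC16A4, HCAR1 and SLC16A9.

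For the abundant genes, the closest patterns over the 3 libraries were found by the Euclidean distance of log2(FPKM + 1) values centred on each gene's mean. SLC16A3 lay nearest to SNRNP25 (distance 0.04), DCTPP1 (0.05) and NOP56 (0.07), and 34 genes lay within 0.2 of it. SLC16A1 lay within 0.01 of WBP11, LSM6 and TFAM and had 884 genes within 0.2. BSG lay within 0.01 of UBXN8, MPND and PTCD3 and had 591 genes within 0.2. With 3 libraries many genes share a pattern by this measure, more of them for the steadier SLC16A1 and BSG than for SLC16A3.

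Genes that make, use or move the same substrates were set beside the carriers. Lactate dehydrogenase converts pyruvate and lactate: LDHA was at 642, 1150 and 823 FPKM and LDHB at 0.298, 983 and 712 FPKM in HepG2/wild, HepG2/metR and HepG2/metR+oxamate. Of 4 lactate dehydrogenase genes kept of 6, LDHB and LDHC rose in HepG2/metR, LDHD fell, and none was called with oxamate. The mitochondrial pyruvate carrier, the route of pyruvate into mitochondria, has 2 subunits. MPC1 fell from 139 FPKM in HepG2/wild to 9.32 FPKM in HepG2/metR, a log2 difference of -3.76, and was at 10.5 FPKM with oxamate, whereas MPC2 was at 31.7, 19.2 and 19.1 FPKM and was not called. The ratio of MPC1 to MPC2 FPKM was 4.38, 0.486 and 0.548. The sodium-coupled carriers SLC5A8 and SLC5A12, which take up monocarboxylates in kidney and gut, stayed at or under 0.206 FPKM.

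Glucose supplies the pyruvate that lactate comes from, and its carriers were examined for that reason. Of 11 glucose transporter genes kept of 14, 10 fell at least 2-fold in HepG2/metR and 0 rose, with a median log2 difference of -2.42. Among all genes kept, 17.6% were called lower and 16.6% higher. Among all solute carrier genes kept, these included, 34.6% were called lower and 14.4% higher, with a median of -0.38. The same 10 glucose transporters fell under each of the 3 other scalings. Of these, SLC2A2, SLC2A4, SLC2A9, SLC2A11 and SLC2A14 were under 1 FPKM in HepG2/metR and passed the filter through HepG2/wild. Among the 3 genes that the filter removed, SLC2A12 was higher in HepG2/metR (0.0227 to 0.349 FPKM), as was SLC2A5 (0 to 0.0152 FPKM). Without a filter the median was -1.94. SLC2A1, the widely expressed carrier, fell from 261 to 37.9 FPKM, SLC2A3 from 92.0 to 4.82 FPKM and SLC2A2, the liver carrier, from 23.2 to 0.0227 FPKM. SLC2A9, a urate carrier, was at 22.6 FPKM in HepG2/wild and listed at 0 in both HepG2/metR libraries. With oxamate SLC2A10 rose by 0.83 on the log2 scale, from 1.15 to 2.82 FPKM, and no glucose transporter was called lower, though 3 of the 11 were below 0, among them SLC2A1 at 28.6 FPKM (-0.39). With the libraries scaled to the same total, and with both smaller pseudocounts, 3 were called higher, and with a pseudocount of 0.01 SLC2A4 was called lower. Whether this list differs from the SLC16 genes was not tested.

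Lactate export moves protons, so pH regulators were listed too. Of 8 genes 2 passed the filter and neither was called in either comparison. The bicarbonate carriers SLC4A2 and SLC4A7 were at 50.9, 39.2 and 41.6 FPKM and at 8.61, 12.0 and 10.2 FPKM in HepG2/wild, HepG2/metR and HepG2/metR+oxamate. The membrane-bound carbonic anhydrases CA9 and CA14, under the filter, were at 1.31 and 1.71 FPKM in HepG2/wild and listed at 0 in both other libraries, and both were past 2-fold lower in HepG2/metR with the filter left out. The bicarbonate carrier SLC4A4, also under the filter, went the other way, at 0.0165, 0.952 and 1.21 FPKM, a log2 difference of 0.94 in HepG2/metR that did not reach the threshold but passed it with either smaller pseudocount.

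Of 9 known regulators of monocarboxylate transporter genes, all passed the filter. In HepG2/metR 3 fell and 0 rose, against 17.6% and 16.6% of all genes kept, with a median log2 difference of -0.58. At a mean FPKM of at least 5, 7 were kept, 2 fell and the median was -0.09. EPAS1, which encodes HIF-2 alpha, fell from 56.0 to 1.19 FPKM, NFE2L2 fell from 90.4 to 39.3 FPKM, and PPARGC1A, a coactivator of oxidative metabolism, was at 3.77 FPKM in HepG2/wild and listed at 0 in HepG2/metR. HIF1A was at 70.7, 85.1 and 95.3 FPKM, not called in either comparison. With oxamate MYC alone of the 9 fell, against 3.82% of all genes kept. Its log2 difference was -0.67, from 74.7 to 46.7 FPKM, and it was not called with the libraries scaled to the same total. PPARA, a nuclear receptor of fatty acid oxidation, was at 3.23, 1.12 and 2.10 FPKM. It lay just short of the threshold in HepG2/metR, and past it with median-of-ratios scaling and with both smaller pseudocounts. With oxamate it was not called as deposited, but was called higher at the same total FPKM and with both smaller pseudocounts.

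Among 14 hypoxia target genes 12 passed the filter. In HepG2/metR ADM, ANKRD37 and PGK1 rose and SLC2A1, which is also a glucose transporter, fell, with a median log2 difference of 0.07 that became -0.24 without a filter and -0.21 at a mean FPKM of at least 5, so the list had no settled direction. With oxamate 5 of the 12 fell, BNIP3, PDK1, PGK1, ENO1 and ALDOA, by log2 differences between -0.73 and -0.62, and 0 rose, with a median of -0.40. Of all genes kept, 3.82% were called lower and 4.3% higher. At a mean FPKM of at least 5, which these 5 genes reached, 403 genes were called lower and 271 higher. SLC16A3 at -0.85 was lower by more than any of the 5. PGK1, ENO1 and ALDOA are enzymes of glycolysis, BNIP3 acts in mitophagy and PDK1 restrains pyruvate dehydrogenase. With the libraries scaled to the same total FPKM, 0 of the 12 were called lower, 1 (NDRG1) was called higher, and the median was -0.23, or -0.40 relative to the median of all genes.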

How the data were processed

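The authors deposited 1 value per gene symbol and library on the log2 scale, of the form log2(FPKM + 1). This form was read from the values: 2 to the power of the value, minus 1, had at most 6 significant digits for 100% of values above 1 FPKM. The submitters' processing notes name STAR 2.5.1b, FastQC 0.11.5, Cufflinks 2.2.1 and the build hg19. The annotation, the strand setting and the filters are not given in the sources used here. Of 25270 symbols, 28 look like spreadsheet dates, and 4 entries with a repeated symbol were left out. The values summed to 562350, 534639 and 473764 FPKM in HepG2/wild, HepG2/metR and HepG2/metR+oxamate.

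Differences of the deposited values were taken with no further scaling among genes whose FPKM averaged 1 or more. Symbols were matched exactly. Each gene of the transporter set is named with its value in every library. From the other lists, genes of high level or large difference were named first, and also genes overlapping a carrier and the 3 nearest patterns of SLC16A1, SLC16A3 and BSG. The genes and lists were chosen with earlier results of these data known. Overlapping genes and transcript lengths came from GENCODE release 29, and promoter windows and pseudogene names from RefSeq (GRCh38.p14), with no conversion of coordinates. Relative depth was read from low genes (under 0.15 FPKM) as the commonest ratio between libraries. Alternatives were pseudocounts of 0.1 and 0.01, a filter at 5 FPKM or none, median-of-ratios, upper-quartile or same-total scaling, and the fold threshold of the other comparison. The ratio of SLC16A3 to SLC16A1 was repeated with a pseudocount of 1. The calculation was tested on simulated data. Python 3.11, numpy 2.4.6, pandas 2.3.3 and matplotlib 3.10.9 were used. Protein sequences were not used here, and 3 genes of the lists are not reported here.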

Additional observations from a re-analysis of the deposited data

How the results depend on the processing

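No paired analysis was possible because there was 1 library per condition, and for the same reason no library could be left out. The carriers called in HepG2/metR were the same under the 3 other scalings and both smaller pseudocounts, and SLC16A3 was called lower with oxamate under these and both other filters. A mean FPKM of at least 5 left 1 gene called higher (SLC16A7) and 1 lower (SLC16A6) in HepG2/metR, since fewer genes are kept. Without a filter HCAR1 made it 3 lower. A threshold of 1.5-fold gave 4 lower in HepG2/metR, adding SLC16A3 and BSG, and a threshold of 2-fold gave 0 lower with oxamate. With pseudocounts of 0.1 and 0.01, SLC16A4 was the 1 gene called higher with oxamate (1 and 1, against 0). The median of the mesenchymal genes in HepG2/metR, 2.82, became -0.12 without a filter, when 2 low collagen genes enter. The median of the hypoxia targets there, 0.07, became -0.24 without a filter and -0.21 at a mean FPKM of at least 5, and that of the regulators, -0.58, became -0.09 at 5. The median of the 7 genes with oxamate, 0.00, became -0.23 at 5. Of 1150 differences of single genes under alternatives, 1058 kept their side of the threshold, 9 lost it, 83 gained it and 0 reversed; of 222 list medians, 215 kept it, 5 lost it, 1 gained it and 1 reversed. Upper-quartile scaling moved the median of all genes by 0.13 in HepG2/metR, and scaling to the same total moved it by 0.14 with oxamate. Relative to the median of all genes, SLC16A3 was at -0.72 as deposited and -0.71 with upper-quartile scaling in HepG2/metR, and at -0.87 as deposited and -0.84 with the same total with oxamate. Relative to it, BSG with oxamate was at -0.25 and -0.22. Over all genes, 2021 were called higher and 2146 lower in HepG2/metR, against 1249 and 1427 at a mean FPKM of at least 5, 3262 and 3300 at 1.5-fold, 2311 and 1892 with upper-quartile scaling and 2121 and 1993 with the same total, so which side was larger depended on the scaling. With oxamate 525 were higher and 466 lower, against 1016 and 607 with a pseudocount of 0.1, 1162 and 685 with 0.01, 271 and 403 at a mean FPKM of at least 5, 1183 and 192 with the same total, and 66 and 64 at 2-fold. The cause of these shifts was not tested. Depth limits the values under about 0.2 FPKM, such as those of SLC16A4, SLC16A6, SLC16A9 and HCAR1 in HepG2/metR.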
